A study of Homo sapiens with 4 samples.

Results

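The genes described here are 9 components and response genes of TGF-beta and bone morphogenetic protein (BMP) signalling: the ligand genes BMP2 and BMP4, the receptor genes TGFBR1 and TGFBR2, the inhibitory SMAD genes SMAD6 and SMAD7, and the ID genes ID1, ID2 and ID3. They were taken by symbol, as every probe set that the platform annotation assigns to 1 of these genes and to no other gene, which gave 17 probe sets for 9 of the 19775 genes read. A probe set is a group of short oligonucleotides that together read 1 transcript; 5 of the genes had several and 4 had 1. RNA came from established human colorectal cancer cell lines, with 1 Affymetrix array for each of 4 groups named by their titles: LS174T-siCDX1, LS174T-siVec, HCT116-CDX1 and HCT116-Vec. LS174T is a mucin-producing colon adenocarcinoma line and HCT116 a colorectal carcinoma line. The titles were read as CDX1 lowered or a vector control in LS174T, and CDX1 added or a vector control in HCT116; CDX1 is an intestinal homeobox transcription factor, and by its title the series concerns its control of cytokeratin 20. The labels gave no construct, no agent, no time and no statement of whether a line was 1 clone.

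TGF-beta ligands bind the receptor TGFBR2, which recruits and activates TGFBR1, and the active pair phosphorylates SMAD2 and SMAD3. BMP ligands act through related receptors on SMAD1, SMAD5 and SMAD9, and both branches share SMAD4. SMAD6 and SMAD7 are inhibitory SMADs that both pathways induce and that block further signalling, while the ID genes are among the best known direct targets of BMP signalling. In the colon BMP signalling rises towards the crypt top, where cells differentiate. TGFBR2 carries a run of adenines in its coding sequence that often gains frameshifts in cancers without mismatch repair. An array measures RNA and does not read such frameshifts.

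Levels are RMA expression on the log2 scale, so a difference of 1 is 2-fold. With 1 array per group no difference had a replicate check, no p-value was computed, and precision is limited by how few arrays there are. A gene was called measured in a comparison where its brighter array was at 6 or more, and "changed", "rose" and "fell" are kept for measured genes that differed at least 2-fold. The level of 6 is no proof of expression: of 13 markers of fibroblasts, endothelium and leukocytes, 10 read 6 or more on all 4 arrays, with a highest reading of 9.14. By the brightest probe set of each, these markers differed by at most 0.34 within a pair and by at most 0.41 between the vector arrays. The fibroblast marker COL1A1 gave the reading of 9.14. Of its 5 probe sets, 2 were at least 2-fold lower in LS174T-siVec than in HCT116-Vec, though they were not held to the level of 6. Markers of colorectal epithelium read 6 or more on all 4 arrays in 9 of 9 cases. The array medians lay between 7.04 and 7.06. Over 30 spike-in control probe sets the SD of the differences was 0.12 in the LS174T pair, 0.15 in the HCT116 pair and 0.18 between the vector arrays. In these bulk samples fewer cells that express a gene and less RNA per cell cannot be told apart.

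CDX1 itself, read by 1 probe set, stood at 9.06 in LS174T-siCDX1, against 10.46 in LS174T-siVec. It stood at 8.24 on the array labelled HCT116-CDX1, against 8.21 in HCT116-Vec. The probe set thus showed no added CDX1 in HCT116, so each direction given for HCT116 follows the title of the array. KRT20, the cytokeratin 20 gene, stood at 9.38 on the array labelled HCT116-CDX1, against 6.36 in HCT116-Vec, and at 5.45 in LS174T-siCDX1, against 8.15 in LS174T-siVec.

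The clearest pattern among the 9 genes was a difference between the lines in the inhibitory SMADs and ID3, which were higher in LS174T-siVec than in HCT116-Vec. For SMAD6 this depended on which of its probe sets were read. SMAD7 was also higher on the array labelled HCT116-CDX1 than in HCT116-Vec, and it was the member that changed within a pair. BMP2 differed in opposite directions in the 2 pairs, each time by less than 2-fold. The receptors, ID1 and ID2 differed little between the lines. The plot of levels by array shows every probe set.

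**Figure D1:**
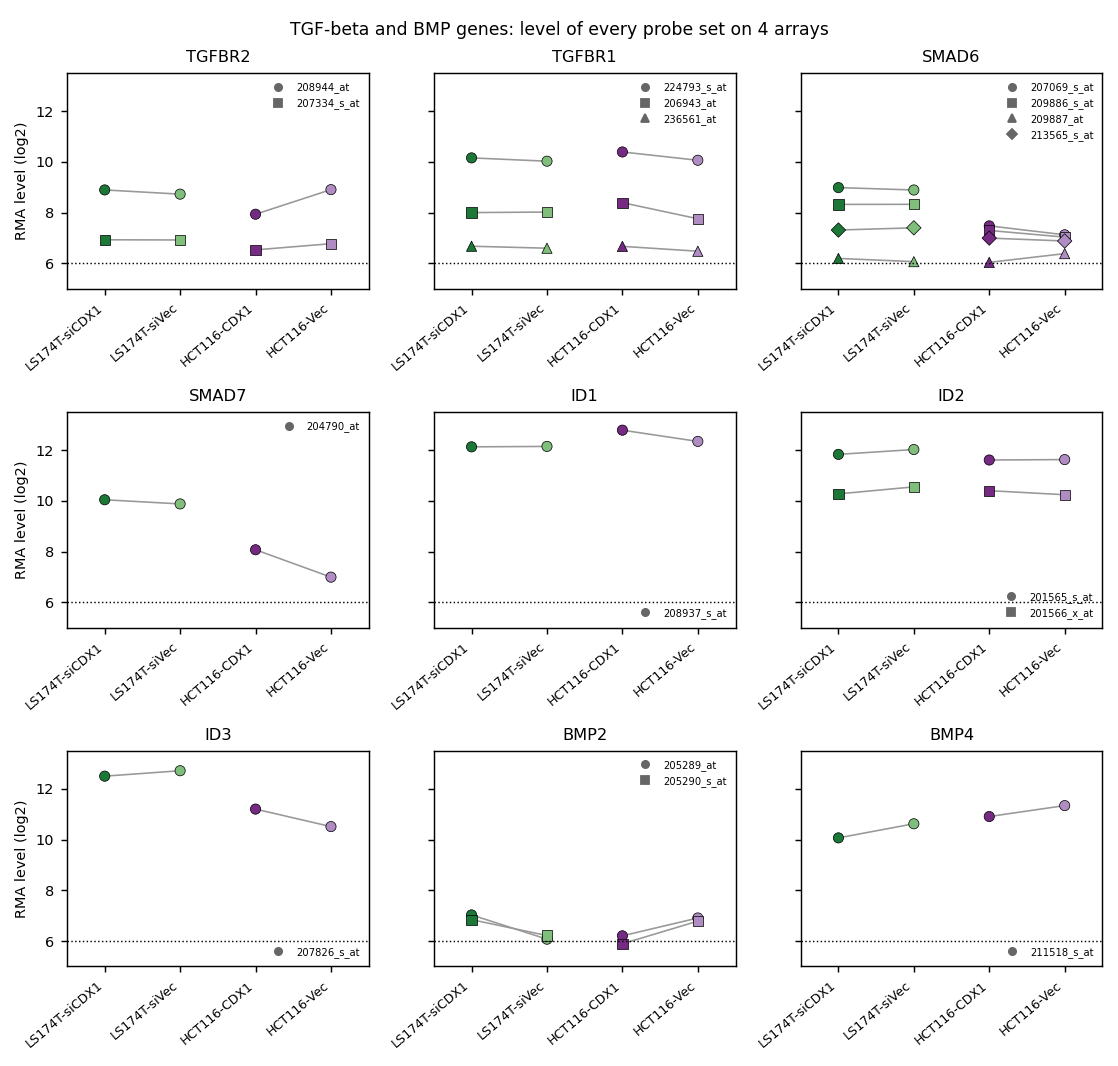
RMA level (log2, y axis) of each of the 17 member probe sets on the 4 arrays (x axis), with 1 panel per gene, 1 marker shape per probe set, a line joining the 2 arrays of a pair and a dotted line at 6. SMAD7 runs from 10.04 in LS174T-siCDX1 to 6.99 in HCT116-Vec, the widest range of any of these probe sets, while the 2 ID2 probe sets span 0.41 and 0.31.

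Of the 9 genes, 0 changed in LS174T-siCDX1 against LS174T-siVec, where 1.85% of 16896 measured genes changed, 0.598% upwards and 1.25% downwards. In the HCT116 pair 1 of the 9 rose and 0 fell, against 1.89% of 16914 measured genes changed in either direction, 0.916% that rose and 0.97% that fell. Between the vector arrays 3 of the 9 were higher in LS174T-siVec and 0 were lower, against 13.4% of 17043 measured genes that changed, 6.03% that were higher and 7.33% that were lower. The count between the lines includes SMAD6, whose call depends on the probe sets read: 2 of 9 were called with the mean of the probe sets of a gene, and 1 of the 5 genes left without probe sets named _x_at or _s_at. By probe set the counts were 0, 1 and 4 of 17, against 1.5%, 1.58% and 11.8% of measured probe sets. The comparison of the vector arrays uses an array of each pair, so its values are not independent of theirs. All 9 genes and all 17 probe sets passed the level of 6 in each comparison, and 16 of the 17 did so on all 4 arrays.

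SMAD7 encodes the inhibitory SMAD that competes for the activated TGF-beta receptor and brings in ubiquitin ligases. Its 1 probe set read 10.04 in LS174T-siCDX1, 9.88 in LS174T-siVec, 8.07 on the array labelled HCT116-CDX1 and 6.99 in HCT116-Vec. Both LS174T arrays were thus above both HCT116 arrays, and the HCT116 arrays stood apart from each other. SMAD7 rose by 1.08, or 2.11-fold, on the array labelled HCT116-CDX1, a size reached by 1.44% of measured genes in that pair. It was 2.89 higher, or 7.40-fold, in LS174T-siVec than in HCT116-Vec, a size reached by 2.08% of measured genes. Within the LS174T pair the difference was 0.16, and 41.4% of measured genes differed at least as much. The rise in HCT116 lay only just past 2-fold, and it was not called at 3-fold. Both HCT116 readings lay under 9.14, the highest reading of the markers of other cell types. The level alone therefore does not show that SMAD7 was expressed in HCT116.

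SMAD6, the inhibitory SMAD that acts mainly on the BMP branch, was read by 4 probe sets that did not agree. The brightest, 207069_s_at, read 8.99 in LS174T-siCDX1, 8.90 in LS174T-siVec, 7.48 on the array labelled HCT116-CDX1 and 7.13 in HCT116-Vec. Both LS174T arrays were above both HCT116 arrays. It was 1.77 higher, or 3.40-fold, in LS174T-siVec than in HCT116-Vec, a size reached by 5.51% of measured genes. Probe set 209886_s_at was 1.29 higher in the same comparison and 213565_s_at 0.52 higher. Probe set 209887_at read 6.04 to 6.39 on the 4 arrays, near the level of 6, and differed by -0.32. With the mean of its probe sets SMAD6 was 0.82 higher, under 2-fold, and without probe sets whose names end in _x_at or _s_at, which can match several transcripts, it was at -0.32, the reading of 209887_at alone. Within the pairs its brightest probe set differed by 0.09 in LS174T and by 0.35 in HCT116. All readings of SMAD6 lay under 9.14, the highest reading of the markers of other cell types.

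ID3 shared this pattern between the lines. ID proteins are helix-loop-helix proteins without a DNA-binding region, which bind and hold back other transcription factors of that class. ID3 read 12.51 in LS174T-siCDX1, 12.72 in LS174T-siVec, 11.21 on the array labelled HCT116-CDX1 and 10.52 in HCT116-Vec. It was 2.20 higher, or 4.61-fold, in LS174T-siVec than in HCT116-Vec, a size reached by 3.64% of measured genes. Both LS174T arrays again lay above both HCT116 arrays. In the HCT116 pair ID3 was at 0.69, or 1.61-fold, on the array labelled HCT116-CDX1, and in the LS174T pair at -0.21, both under 2-fold.

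ID1 and ID2 did not share it. ID1 read 12.13 in LS174T-siCDX1, 12.15 in LS174T-siVec, 12.79 on the array labelled HCT116-CDX1 and 12.34 in HCT116-Vec, with both HCT116 arrays slightly above the others. Its differences were -0.02 in the LS174T pair, 0.44 in the HCT116 pair and -0.20 between the vector arrays. The brighter probe set of ID2 read 11.83 in LS174T-siCDX1, 12.02 in LS174T-siVec, 11.61 on the array labelled HCT116-CDX1 and 11.63 in HCT116-Vec. It differed by -0.19 in the LS174T pair, -0.02 in the HCT116 pair and 0.40 between the vector arrays. Its second probe set, 201566_x_at, differed by -0.28, 0.16 and 0.31 in the same comparisons. All of these were under 2-fold, so of the 3 ID genes ID3 alone changed between the vector arrays.

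The promoter windows of the genes that differed between the lines, SMAD7, SMAD6 and ID3, are given here with that of ID1, which did not change. They are RefSeq sequences of GRCh38.p14, from 250 bases before to 50 after an annotated gene start, written 5′ to 3′ on the strand of the gene; a window was listed for 8 of the 9 genes, and for SMAD7 the outermost of 3 starts is printed. Capitals mark matches on either strand to CAGAC (a SMAD box), GTCTAGAC (the palindromic SMAD element), GGCGCC (a GC-rich SMAD element) and TTTAT (the core of CDX binding sites, also read as ATAAA). SMAD7 lies at chr18:48950916-48951215 on the minus strand, SMAD6 at chr15:66701986-66702285 on the plus strand, ID3 at chr1:23559452-23559751 on the minus strand and ID1 at chr20:31605039-31605338 on the plus strand.
SMAD7: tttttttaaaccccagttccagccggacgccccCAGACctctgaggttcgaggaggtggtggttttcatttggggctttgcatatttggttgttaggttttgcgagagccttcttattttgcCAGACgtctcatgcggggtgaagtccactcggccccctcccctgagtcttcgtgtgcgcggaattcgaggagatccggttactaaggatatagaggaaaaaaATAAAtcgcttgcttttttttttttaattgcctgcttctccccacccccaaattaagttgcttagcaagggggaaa
SMAD6: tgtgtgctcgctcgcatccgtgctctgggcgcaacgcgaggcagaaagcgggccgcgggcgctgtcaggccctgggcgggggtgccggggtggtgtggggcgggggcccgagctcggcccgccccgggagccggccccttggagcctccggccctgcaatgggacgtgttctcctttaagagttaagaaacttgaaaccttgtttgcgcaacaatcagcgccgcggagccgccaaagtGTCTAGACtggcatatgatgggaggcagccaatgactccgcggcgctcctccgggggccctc
ID3: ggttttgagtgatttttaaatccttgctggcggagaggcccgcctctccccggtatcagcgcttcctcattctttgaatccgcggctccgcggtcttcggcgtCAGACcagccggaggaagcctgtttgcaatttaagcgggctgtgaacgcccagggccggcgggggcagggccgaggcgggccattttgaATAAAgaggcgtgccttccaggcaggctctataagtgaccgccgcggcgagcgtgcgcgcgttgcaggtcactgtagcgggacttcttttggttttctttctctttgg
ID1: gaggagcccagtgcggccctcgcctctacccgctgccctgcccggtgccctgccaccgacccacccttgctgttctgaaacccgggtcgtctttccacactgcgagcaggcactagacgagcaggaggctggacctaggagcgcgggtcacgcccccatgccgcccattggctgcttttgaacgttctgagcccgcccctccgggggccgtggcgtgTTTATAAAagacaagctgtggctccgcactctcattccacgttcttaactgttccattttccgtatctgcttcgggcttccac
The SMAD6 window held the palindromic element 1 time, beginning 12 bases before the start, and 0.202% of 35116 RefSeq windows hold it. The printed SMAD7 window held the SMAD box 2 times and the CDX core 1 time, and the ID3 window held each of these 1 time. The ID1 window held the CDX core 2 times, overlapping each other in the run tttataaa, and no SMAD motif. These 2 matches began 33 and 30 bases before the start, and the run also holds the letters tataaa. Binding of CDX1 to any match was not tested. These motifs are common, with the SMAD box in 45.3%, the CDX core in 34.9% and GGCGCC in 19.2% of windows, and no match overlapped a match to another motif. Members that did not change also held them: the SMAD box was in all 3 windows of BMP4 and in 4 of the 8 of TGFBR1, and each of these genes had a window with GGCGCC 2 times. A match is a description of the letters, and a missing match says only that they are not in this window.

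The ligand genes BMP2 and BMP4 read lower in LS174T-siVec than in HCT116-Vec, by less than 2-fold. BMP2, whose product promotes differentiation in many tissues, was read by 2 probe sets at low levels. Probe set 205289_at read 7.03 in LS174T-siCDX1, 6.08 in LS174T-siVec, 6.21 on the array labelled HCT116-CDX1 and 6.91 in HCT116-Vec. Probe set 205290_s_at read 6.85 in LS174T-siCDX1, 6.22 in LS174T-siVec, 5.90 on the array labelled HCT116-CDX1 and 6.79 in HCT116-Vec. In both probe sets LS174T-siCDX1 was the highest array, HCT116-Vec came next, and LS174T-siVec and the array labelled HCT116-CDX1 were the lowest. The differences were 0.96 and 0.63 in LS174T-siCDX1 against LS174T-siVec, and -0.70 and -0.89 on the array labelled HCT116-CDX1 against HCT116-Vec. None reached 2-fold. Among measured genes 1.98% differed at least as much as BMP2 in the LS174T pair and 5.70% in the HCT116 pair. These readings lie within about 1 log2 unit of the level of 6, where the markers of other cell types also read.

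BMP4, a BMP ligand made in the colon, read 10.07 in LS174T-siCDX1, 10.63 in LS174T-siVec, 10.91 on the array labelled HCT116-CDX1 and 11.35 in HCT116-Vec. Both HCT116 arrays lay above both LS174T arrays. The differences were -0.56 in the LS174T pair, -0.43 in the HCT116 pair and -0.72 between the vector arrays, each under 2-fold. BMP4 was thus lower on the modified array of both pairs, although the titles name opposite changes of CDX1.

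The receptor genes were similar in the vector arrays. TGFBR2, the receptor that binds TGF-beta, read 8.90 in LS174T-siCDX1, 8.73 in LS174T-siVec, 7.94 on the array labelled HCT116-CDX1 and 8.91 in HCT116-Vec by probe set 208944_at. The array labelled HCT116-CDX1 was the low one, at -0.97 or 1.96-fold below HCT116-Vec, just under the threshold, and 2.09% of measured genes differed as much. The second probe set, 207334_s_at, was dim at 6.53 to 6.93 and differed by -0.24 in that pair. All readings of TGFBR2 lay under 9.14, the highest reading of the markers of other cell types. In the LS174T pair the 2 probe sets differed by 0.17 and 0.01, and between the vector arrays by -0.18 and 0.15. TGFBR1, its kinase partner, was read by 3 probe sets, of which the brightest read 10.16 in LS174T-siCDX1, 10.03 in LS174T-siVec, 10.39 on the array labelled HCT116-CDX1 and 10.07 in HCT116-Vec. All 3 were above 0 in the HCT116 pair, at 0.33, 0.63 and 0.19, and none reached 2-fold.

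**Figure D2:**
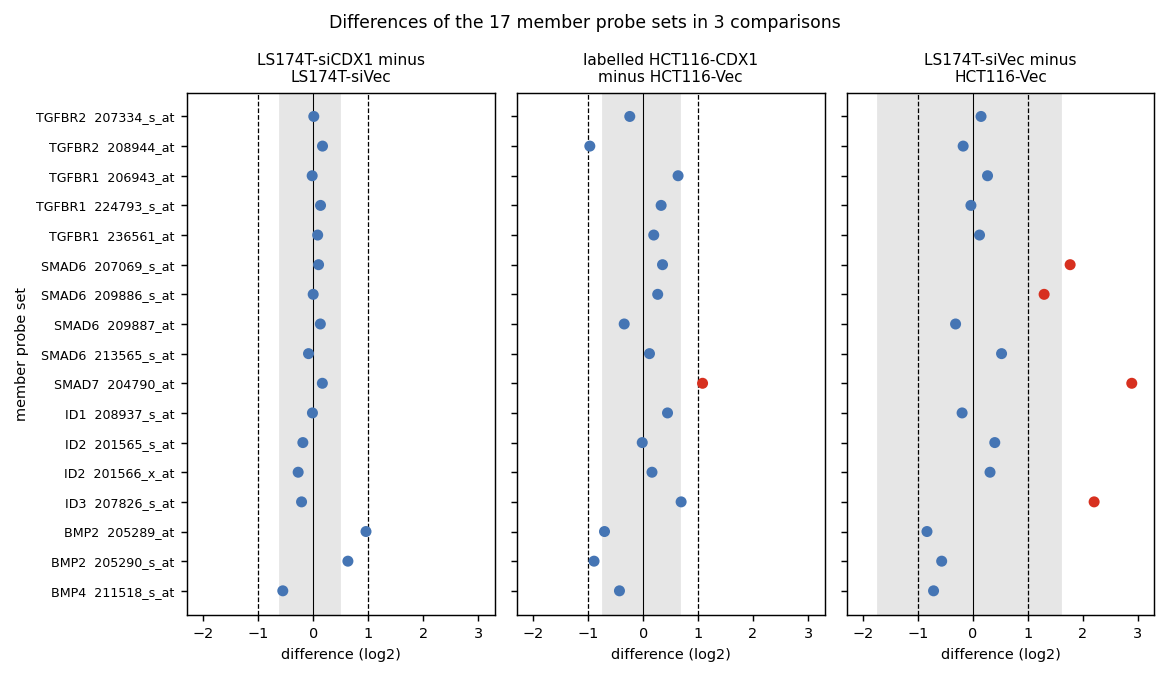
Difference (log2, x axis) of each of the 17 member probe sets (y axis) in LS174T-siCDX1 against LS174T-siVec, the array labelled HCT116-CDX1 against HCT116-Vec, and LS174T-siVec against HCT116-Vec. Red points differed at least 2-fold (dashed lines) and grey bands hold the central 95% of all measured probe sets; outside the band lie both BMP2 probe sets in the LS174T pair, at 0.96 and 0.63, SMAD7 at 1.08, ID3 at 0.69, TGFBR2 208944_at at -0.97 and BMP2 205290_s_at at -0.89 in the HCT116 pair, and SMAD7 at 2.89, ID3 at 2.20 and SMAD6 207069_s_at at 1.77 between the vector arrays.

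Over the 9 genes the median difference was 0.09 in the LS174T pair, where the median of all measured genes was -0.01. It was 0.33 in the HCT116 pair, again beside -0.01, and -0.04 between the vector arrays, beside 0.01. The HCT116 median depended on which probe sets were read: it was 0.10 with the mean of the probe sets of a gene, and -0.34 over the 5 genes left without shared probe sets. The 2 pairs share no array. Of the 9 genes, 2 were above 0 in LS174T-siCDX1 and below 0 on the array labelled HCT116-CDX1, 2 the reverse, 3 above 0 in both and 2 below 0 in both; of 16530 genes measured in both pairs the same counts were 3835, 3878, 4187 and 4628. For 5 of the 9 genes the difference between the vector arrays was larger in size than either difference within a pair. The same count over all genes was not made, so it cannot be called particular to these 9. Of all measured genes 13.4% changed between the vector arrays, against 1.85% in the LS174T pair and 1.89% in the HCT116 pair.

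SMAD7, the member that changed within a pair, was set against 17280 genes by the Euclidean distance of its 4 levels, each gene centred on its own mean. The closest were RBM47, an RNA-binding protein gene, at a distance of 0.28, the acyl-CoA synthetase gene ACSL1 at 0.33 and ARHGAP32 at 0.33. RBM47 read 12.42 in LS174T-siCDX1, 12.45 in LS174T-siVec, 10.46 on the array labelled HCT116-CDX1 and 9.71 in HCT116-Vec. ACSL1 differed by 1.43 and ARHGAP32 by 1.02 in the HCT116 pair, and in LS174T-siVec relative to HCT116-Vec RBM47 was 2.74, ACSL1 3.24 and ARHGAP32 2.51 higher. Within a distance of 0.5 lay 8 genes.

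**Figure D3:**
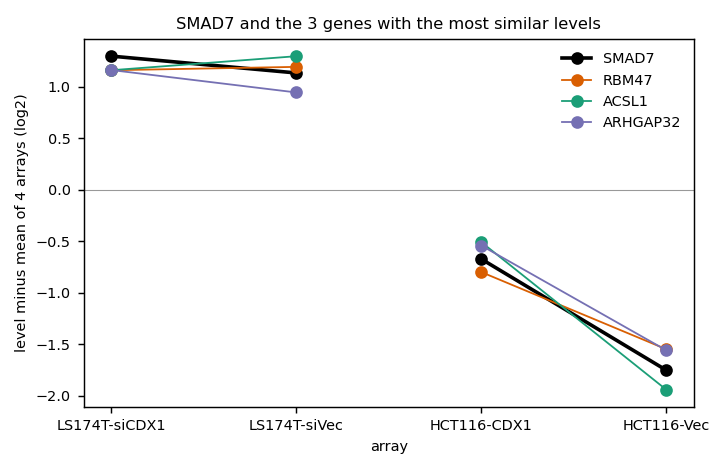
Level minus the mean of the 4 arrays (log2, y axis) for SMAD7 and its 3 closest genes on the 4 arrays (x axis), with lines joining the arrays of a pair. All 4 genes are high on both LS174T arrays and lowest in HCT116-Vec, with the array labelled HCT116-CDX1 between them.

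The wider pathway was described with 7 lists of 110 distinct genes, of which 101 were read, and some genes stand in 2 lists. The lists were chosen with earlier results of these data known. Their shares beside those of all genes therefore cannot show an excess in the pathway. In LS174T-siCDX1 against LS174T-siVec, 3 of 89 measured genes fell and 0 rose, or 3.37% beside the 1.85% of all genes. These counts rest on the brightest probe set of each gene. Among genes not called, 1 probe set was at least 2-fold higher for PMEPA1, ID4 and GDF11, and 1 at least 2-fold lower for LTBP4. These single probe sets were not held to the level of 6. Probe sets that moved against the brightest one of their gene were not counted. BMP7, a BMP ligand, stood at 8.98 in LS174T-siCDX1, against 10.66 in LS174T-siVec, and fell by 1.68, with 3 of its 4 probe sets past 2-fold. CCN2, a matricellular protein gene induced by TGF-beta and also by YAP, stood at 5.33 in LS174T-siCDX1, against 7.58 in LS174T-siVec. With the level under 6 set to 6, CCN2 was 2.99-fold lower. TGFBI, a TGF-beta-induced matrix protein gene, stood at 7.49, against 8.81 in LS174T-siVec, and fell by 1.32. Of 17 measured TGF-beta response genes these last 2 were the ones that fell, and the list median was 0.02.

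In the HCT116 pair 3 of 91 measured genes of the lists rose and 1 fell, or 4.40% beside the 1.89% of all genes. SKIL, a SMAD corepressor gene that TGF-beta induces, stood at 9.43 on the array labelled HCT116-CDX1, against 7.64 in HCT116-Vec, a rise of 1.79 seen past 2-fold in 1 of 5 probe sets. MSX1, a homeobox gene of the BMP response, stood at 12.57, against 11.41 in HCT116-Vec, and rose by 1.16 in 1 of 2 probe sets. FSTL1, a secreted follistatin-like protein gene, stood at 10.02, against 8.54 in HCT116-Vec, and rose by 1.48 in 1 of 3. BAMBI, a decoy receptor of both branches, stood at 8.90 on the array labelled HCT116-CDX1, against 10.37 in HCT116-Vec, and fell by 1.47. The BMP response list thus held 1 rise and 1 fall among 11 measured genes, with a median of 0.08. The 6 signalling SMADs, SMAD1 to SMAD5 and SMAD9, differed by -0.27 to 0.40 in the LS174T pair, by -0.29 to 0.61 in the HCT116 pair and by -0.73 to 0.56 between the vector arrays, and 0 of them changed.

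Between the vector arrays 8 of 90 measured genes were higher in LS174T-siVec and 12 lower, or 22.2% beside the 13.4% of all genes. Among ligands, BMP7 stood at 10.66 in LS174T-siVec, against 7.21 in HCT116-Vec, with 3 of 4 probe sets past 2-fold. TGFB1 stood at 5.97 in LS174T-siVec, against 9.05 in HCT116-Vec, 8.31-fold lower with the level under 6 set to 6, in 1 of 2 probe sets. Its reading of 9.05 also lay under 9.14, the highest marker of other cell types. Among receptors and co-receptors, RGMB, a BMP co-receptor gene, was 1.93 higher in LS174T-siVec in 4 of 4 probe sets, and TGFBR3, the betaglycan gene, 1.19 higher in 2 of 2. BAMBI at -2.29, the BMP co-receptor gene RGMA at -1.53 and the activin receptor gene ACVR2B at -1.36 were lower in LS174T-siVec than in HCT116-Vec. RGMA passed 2-fold in 1 of 2 probe sets and ACVR2B in 1 of 3, while BAMBI had 1 probe set. These receptors therefore differed in both directions, with a list median of -0.30 over 13 measured genes.

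Among the SMAD regulators, the ubiquitin ligase genes SMURF2, at -2.83 in 4 of 4 probe sets, and TRIM33, at -1.31 in 1 of 4, were lower in LS174T-siVec than in HCT116-Vec. Of the extracellular antagonists, NBL1 was 1.81 higher and FSTL1 and the latency protein gene LTBP3 were at -1.88 and -1.56. FSTL1 and LTBP3 each passed 2-fold in 1 of 3 probe sets. Of 18 measured TGF-beta response genes, TGFBI at 1.65 and CCN2 at 1.06 were higher, while KLF10 at -2.10, SNAI2 at -1.90 and the fibronectin gene FN1 at -1.56 were lower. FN1 passed 2-fold in 4 of 7 probe sets. SNAI2 was dim, and was 1.17-fold lower with levels under 6 set to 6. Of 11 measured BMP response genes, RUNX2 at 1.34 and DLX3 at 1.19 were higher, while MSX1, at -3.52, and BAMBI were lower. RUNX2 passed 2-fold in 1 of 6 probe sets and MSX1 in 1 of 2. By the brightest probe sets, 7 of the TGF-beta response genes were above 0 and 11 below, with a median of -0.15. Of the BMP response genes 8 were above 0 and 3 below, with a median of 0.24. COL1A1 was at least 2-fold lower in 2 of 5 probe sets, THBS1 in 1 of 7 and ZEB1 in 1 of 4. These genes were not called, and the probe sets were not held to the level of 6. The response genes beyond the 9 members thus did not move one way between the lines.

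**Figure D4:**
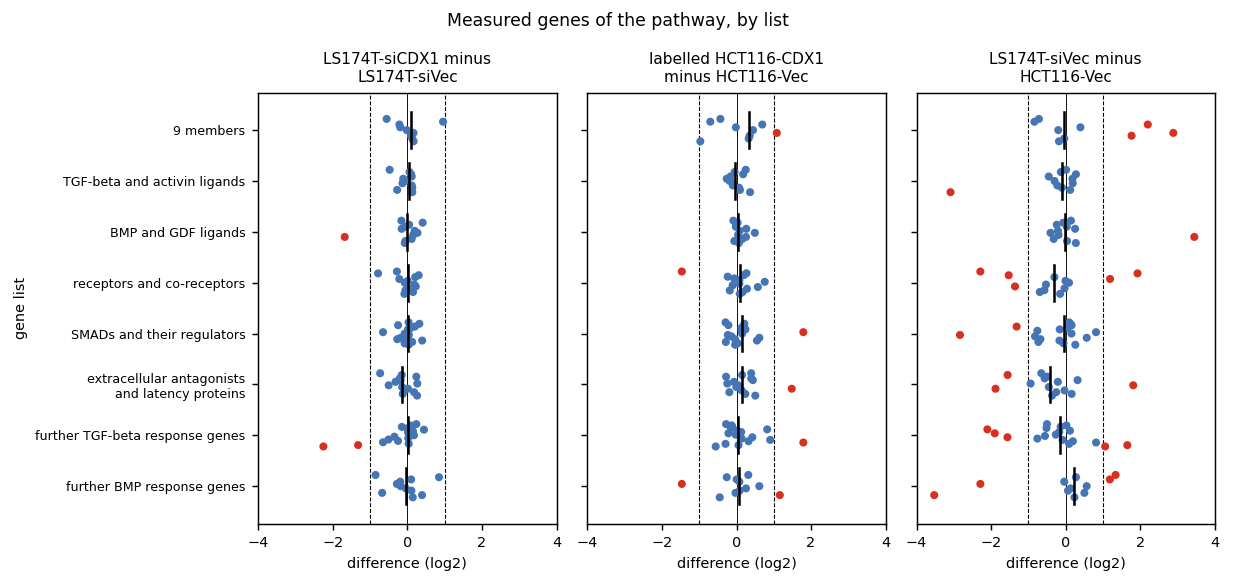
Difference (log2, x axis) of the measured genes of each list (y axis, the 9 members first) in the 3 comparisons, with red points at 2-fold or more (dashed lines) and a black bar at each list's median. Medians lie between -0.41 and 0.33, and most points beyond the dashed lines are in the panel of LS174T-siVec against HCT116-Vec.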

How the data were processed

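Total RNA from 4 cell line samples was extracted with RNeasy and labelled as biotinylated cRNA from 2 µg with an Enzo kit, per the labels' protocols. The authors deposited log2 expression values of 54675 probe sets made with RMA, per the submitters' processing notes; no source used here gives the RMA version or says which arrays were normalised jointly. Values were used as deposited.

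Gene names came from the annotation of the platform, with 41097 carrying 1 gene, 1801 several and 11777 none listed; 41043 matched RefSeq (GRCh38.p14) by gene identifier and 0 symbols changed. Where a gene had several probe sets, the one brightest on average was read. Differences of at least 2-fold with the brighter array at 6 or more were called. Named genes were the 9 members, CDX1 and KRT20, list genes that changed within a pair, up to 3 per list and direction between the vector arrays, and the 3 genes closest to a member that changed within a pair. The signalling SMADs as a group were added after their values were seen. So were PMEPA1, ID4, GDF11, LTBP4, COL1A1, THBS1 and ZEB1, for probe sets past 2-fold beside their brightest one. The members and lists were chosen with earlier results of these data known. Alternatives were other floors, thresholds, normalizations and probe set choices. Python 3.11.15, numpy 2.4.6, pandas 2.3.3, statsmodels 0.14.6 and matplotlib 3.10.9 were used.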

Additional observations from a re-analysis of the deposited data

How the results depend on the processing

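Most values kept their call: under the alternatives 202 of the differences of single genes stayed on their side of the threshold, 1 lost its call and 1 reversed. Both exceptions were SMAD6 between the vector arrays, at 0.82 with the mean of its probe sets and at -0.32 without the probe sets named _x_at or _s_at. Part of the 202 was fixed in advance. The brightest probe sets of the 9 genes read 6 or more on all 4 arrays. Using no floor, or setting levels under 6 to 6, therefore returned the same values. A floor of 7 alters no difference, and the mean of probe sets alters none of the 4 genes with 1 probe set. At 1.5-fold 1 gene and 2 probe sets were called in the LS174T pair, all higher, where 4.96% of measured genes and 4.31% of probe sets differed as much. In the HCT116 pair 4 genes, 2 higher and 2 lower, and 6 probe sets, 3 higher and 3 lower, were called beside 9.48% and 8.30%, and between the vector arrays 5 genes, 3 higher and 2 lower, beside 26.5%. At 3-fold 0 genes and 0 probe sets were called in the HCT116 pair. Without the _x_at and _s_at probe sets 5 genes could be read, 1 of which was called between the vector arrays, and the HCT116 median was -0.34; with the mean of probe sets it was 0.10. The other 86 values of counts and medians, which include all those with no floor, a floor of 7, quantile normalization, equal medians, a loess removed (span 0.3) and levels under 6 set to 6, stayed within 1.5 times of the count, or within the SD of the spike-in probe sets for a median. No paired analysis was possible because the groups compared share fewer than 2 replicate numbers, and a fit of line and CDX1 state over the 4 arrays was not made. BMP2, the second TGFBR2 probe set and 209887_at of SMAD6 lay close to 6, which limits what their differences can show. SMAD7 in HCT116, at 8.07 and 6.99, and SMAD6 and TGFBR2 on all 4 arrays read under 9.14, the highest marker of other cell types. The fold sizes of SMAD7, SMAD6 and TGFBR2 are limited in the same way.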

Other observations

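Transcripts that overlap or resemble ID2 were read separately from it. A probe set shared between ID2 and the related ID2B read 8.40 in LS174T-siCDX1, 8.46 in LS174T-siVec, 7.62 on the array labelled HCT116-CDX1 and 7.81 in HCT116-Vec, so that both LS174T arrays were the higher ones by less than 2-fold. The 2 probe sets of the antisense gene ID2-AS1 differed by -0.13 and -0.19 in the LS174T pair. In the HCT116 pair they went opposite ways, at -0.47 and 0.41, and between the vector arrays they were at 0.42 and 0.12.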
